A study of Arabidopsis thaliana with 38 samples.

Results

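The genes described here are 5 Arabidopsis thaliana genes of the lipid transfer and seed-storage-like protein superfamily: AT3G22620 (probe set 256937_at), AT2G48130 (262349_at), AT4G22460 (254313_at), AT3G18280 (257066_at) and AT3G53980 (251928_at). Each was read by 1 named probe set of a type not shared between genes, out of 22746 probe sets used on ATH1 arrays, which name 13286 distinct genes. AT2G48130 lies on chromosome 2, AT4G22460 on chromosome 4, and the other genes on chromosome 3. The members were chosen for values measured on these arrays. AT3G22620 stood out in wild type (WT) against SHR, and AT4G22460 in the line UAS-BLJ. The choice of the other genes was traced by rank: AT3G53980 ranked 4 and AT3G18280 ranked 6 among the highest changes of CO2 cells against J0571 cells, and AT2G48130 ranked 13 among the highest changes of WT against SHR. Comparisons that hold the arrays in which a gene stood out are therefore described for that gene with no test. Tests that share only the other arrays of a choice are given but are not independent of it. The tests of AT3G22620, AT2G48130 and AT4G22460 in UAS lines against SHR are of this kind. AT4G22460 also ranked 12 among the lowest changes of UAS-IME against SHR. AT3G53980 also ranked 14 among the highest changes of WT against SHR on the two-cycle arrays. These comparisons may have taken part in the choice, and their tests are given with this limit.

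Lipid transfer proteins are small secreted proteins in which disulfide bridges between conserved cysteines hold a hydrophobic cavity that can bind fatty acids and other lipids. Members with a glycosylphosphatidylinositol anchor (GPI-anchored members), here AT3G22620 and AT2G48130, sit on the outer face of the plasma membrane, and genes of this class are known for roles in the deposition of cuticular wax and of suberin, a lipid polymer of seed coats and of the root endodermis. AT3G18280 and AT3G53980 were listed with the type 2 and DIR1-like proteins, small secreted forms without an anchor. AT4G22460 was listed with the hybrid proline-rich proteins, in which a proline-rich stretch can precede the lipid transfer-like domain. The same list holds AT1G62500, the gene after which the cortex marker CO2 is named, and AT1G62510.

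RNA of roots taken 5 days after germination was measured on 38 arrays in 13 groups, on standard growth media. The J0571 groups, 10 in all, were cells of the C24 ecotype sorted by J0571, an enhancer trap of the ground tissue, the layers that hold cortex and endodermis: WT and a line labelled SHR, each on 3 arrays labelled by a two-cycle and 3 by a one-cycle protocol, and 6 lines labelled SHR in which UAS drives BLJ, NUC, MGP, JKD, SCR or IME, with 3 one-cycle arrays each. UAS responds to the trap, so by design each UAS gene is driven in the cells that the marker selects. The signals of the driven genes are not given here. SHR and SCR are transcription factors that pattern the ground tissue, and the other driven genes encode zinc finger factors of the BIRD family. Whether SHR and BLJ mark mutants is not stated in the labels, whose spelling is kept. The Columbia groups were dissected meristems of WT (2 arrays) and of a line labelled BLJ (3 arrays), and WT cortex cells of the meristematic zone sorted by CO2 (3 arrays). Ecotype, marker and zone differ together between J0571 and CO2 cells and cannot be told apart. All values are MAS5 signals, linear intensities of a probe set on 1 array, and a level of a gene is not comparable with that of another gene because probe sets bind with different strength.

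Array medians lay between 55.8 and 177.5, with the meristem BLJ arrays the most spread (88.4 to 177.5). The 10th percentile of an array was 3.02 to 3.98 in the one-cycle WT, SHR and UAS-BLJ groups and 8.08 to 10.22 in the other UAS groups, so low signals are read against an unequal floor. The GAPDH 3′ over 5′ ratio, a sign of RNA integrity and amplification, was 2.50 ± 0.58 (log2, SD, n = 3) in two-cycle SHR and -0.02 ± 0.11 in two-cycle WT (n = 3), and 7.25 ± 2.68 in meristem BLJ (n = 3) against 3.51 ± 0.12 in meristem WT (n = 2). The same ratio of actin was 0.07 ± 0.12 in two-cycle WT and 3.22 ± 0.18 in two-cycle SHR, and 1.78 ± 0.26 in one-cycle WT against 4.06 ± 0.14 in one-cycle SHR, where GAPDH gave 0.27 ± 0.19 and -0.05 ± 0.16. It lay at 2.38 to 4.98 in the UAS lines. In CO2 cells both ratios were above those of one-cycle J0571 WT cells, with 2.86 ± 0.36 for GAPDH and 6.72 ± 0.53 for actin, and in the meristems actin went against GAPDH, with 5.04 ± 1.11 in BLJ and 6.32 ± 0.02 in WT. The part of these ratios in the changes below was not tested. Of the cell type lists, 4 of 13 endodermis genes, 5 of 5 cortex genes and 2 of 7 epidermis and root hair genes had a named probe set, and no vascular or root cap gene had one. The endodermis sum ran from 4580 to 6533 in one-cycle WT, from 1198 to 1652 in one-cycle SHR and from 550 to 1033 in CO2 cells. The epidermis sum ran from 92 to 140 in one-cycle SHR, from 604 to 962 in UAS-JKD and from 339 to 804 in UAS-SCR.

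AT3G22620, the first of the GPI-anchored genes, was among the brightest probe sets of WT ground tissue. Its signal was 8001, 6187 and 7948 on the one-cycle WT arrays, between the 99.4th and the 99.8th percentile of each array, and 555, 486 and 511.5 on the one-cycle SHR arrays. On the two-cycle arrays it was 5036, 11928 and 3997 in WT and 90.1, 134 and 114 in SHR. The WT and SHR arrays did not overlap under either protocol, and the WT mean was 14.3-fold (one-cycle) and 61.9-fold (two-cycle) that of SHR. These differences chose the gene and carry no test, and the share of all tested probe sets called at an adjusted p under 0.05, in either direction, was 34.5% for one-cycle (17% higher and 17.5% lower in WT) and 28.8% for two-cycle arrays (14.8% higher and 13.9% lower). The 4 measured endodermis genes were also called between WT and SHR, 3 of them higher in one-cycle WT and 4 in two-cycle WT. In such sorted bulk samples, fewer cells of a type and less RNA per cell cannot be told apart, and the part of cell makeup in the difference was not tested.

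Among the UAS lines, AT3G22620 was highest in UAS-SCR. Its signal there was 2303, 853 and 2020 on the 3 arrays, all above the 3 SHR arrays and all below the WT arrays. The change against SHR was 1.59 ± 0.35 (log2, SE; adjusted p = 0.00156; 47.7% of all probe sets were called in this comparison, 25.1% higher and 22.6% lower), and the UAS-SCR mean of 1725 was 23.4% of the one-cycle WT mean. In UAS-SCR 3 of the 4 endodermis genes were also higher than in SHR and 1 lower, and their sum ran from 1635 to 2948. Each UAS line was set against the same 3 SHR arrays, which also took part in the choice of AT3G22620. These comparisons are therefore independent neither of each other nor of the choice. SHR was the low side of the contrast that chose the gene, so a test for a higher signal in a UAS line reuses its values.

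In UAS-IME the signal of AT3G22620 was 1238, 814 and 1125, again above all SHR arrays. The change of 0.99 ± 0.35 missed the threshold (adjusted p = 0.0504; 21.1% of probe sets called, 13.2% higher and 7.94% lower), and when arrays of the same replicate number were blocked, since they pair in this comparison, its adjusted p was 0.0477. In UAS-MGP the gene was lower than in SHR, with 112, 336 and 167 on the arrays, none of which reached the lowest SHR array. This change was -1.40 ± 0.35 (adjusted p = 0.0166; 9.07% called, 5.31% higher and 3.76% lower), and it was no longer called without SHR replicate 2_1, UAS-MGP replicate 1 or UAS-MGP replicate 3 (adjusted p up to 0.0984). UAS-NUC (1162, 521 and 904), UAS-JKD (739, 483 and 872) and UAS-BLJ (299, 401 and 338.5) did not pass the test, with changes of 0.65 (adjusted p = 0.144), 0.38 (0.382) and -0.57 (0.367).

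In CO2 cells and meristems AT3G22620 was lower than in J0571 WT cells, though the CO2 mean of 723 was above the 517 of one-cycle SHR, with overlap. It read 1224, 527 and 418 in CO2 cells, a mean 9.8% of that of one-cycle J0571 WT cells, a difference given with no test. In the meristems it read 20.6 and 35.2 in WT and 65.9, 76.9 and 224 in BLJ. CO2 cells were higher than WT meristems by 3.94 ± 0.42 on the log2 scale (adjusted p = 7.49e-05, where 72.5% of probe sets passed the threshold, 31.2% with a higher and 41.4% with a lower signal in CO2 cells). The WT meristem arrays lay between the 29.7th and 41.2th percentile and the CO2 arrays between the 82.8th and 93.1th. The gene thus passed the filter on low values, set at the 40th percentile, through the CO2 arrays, and the call is no support for the difference. BLJ and WT meristem arrays did not overlap as deposited, but after quantile normalization the difference was 0.49 ± 0.57 and not called (adjusted p = 0.599, 2.56% of probe sets called, 2.18% higher and 0.386% lower in BLJ). In the order of its 13 group means, only 3 of 12 pairs of neighbouring groups had arrays that did not overlap: two-cycle WT and UAS-SCR, one-cycle SHR and UAS-BLJ, and two-cycle SHR and WT meristems.

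**Figure D1:**
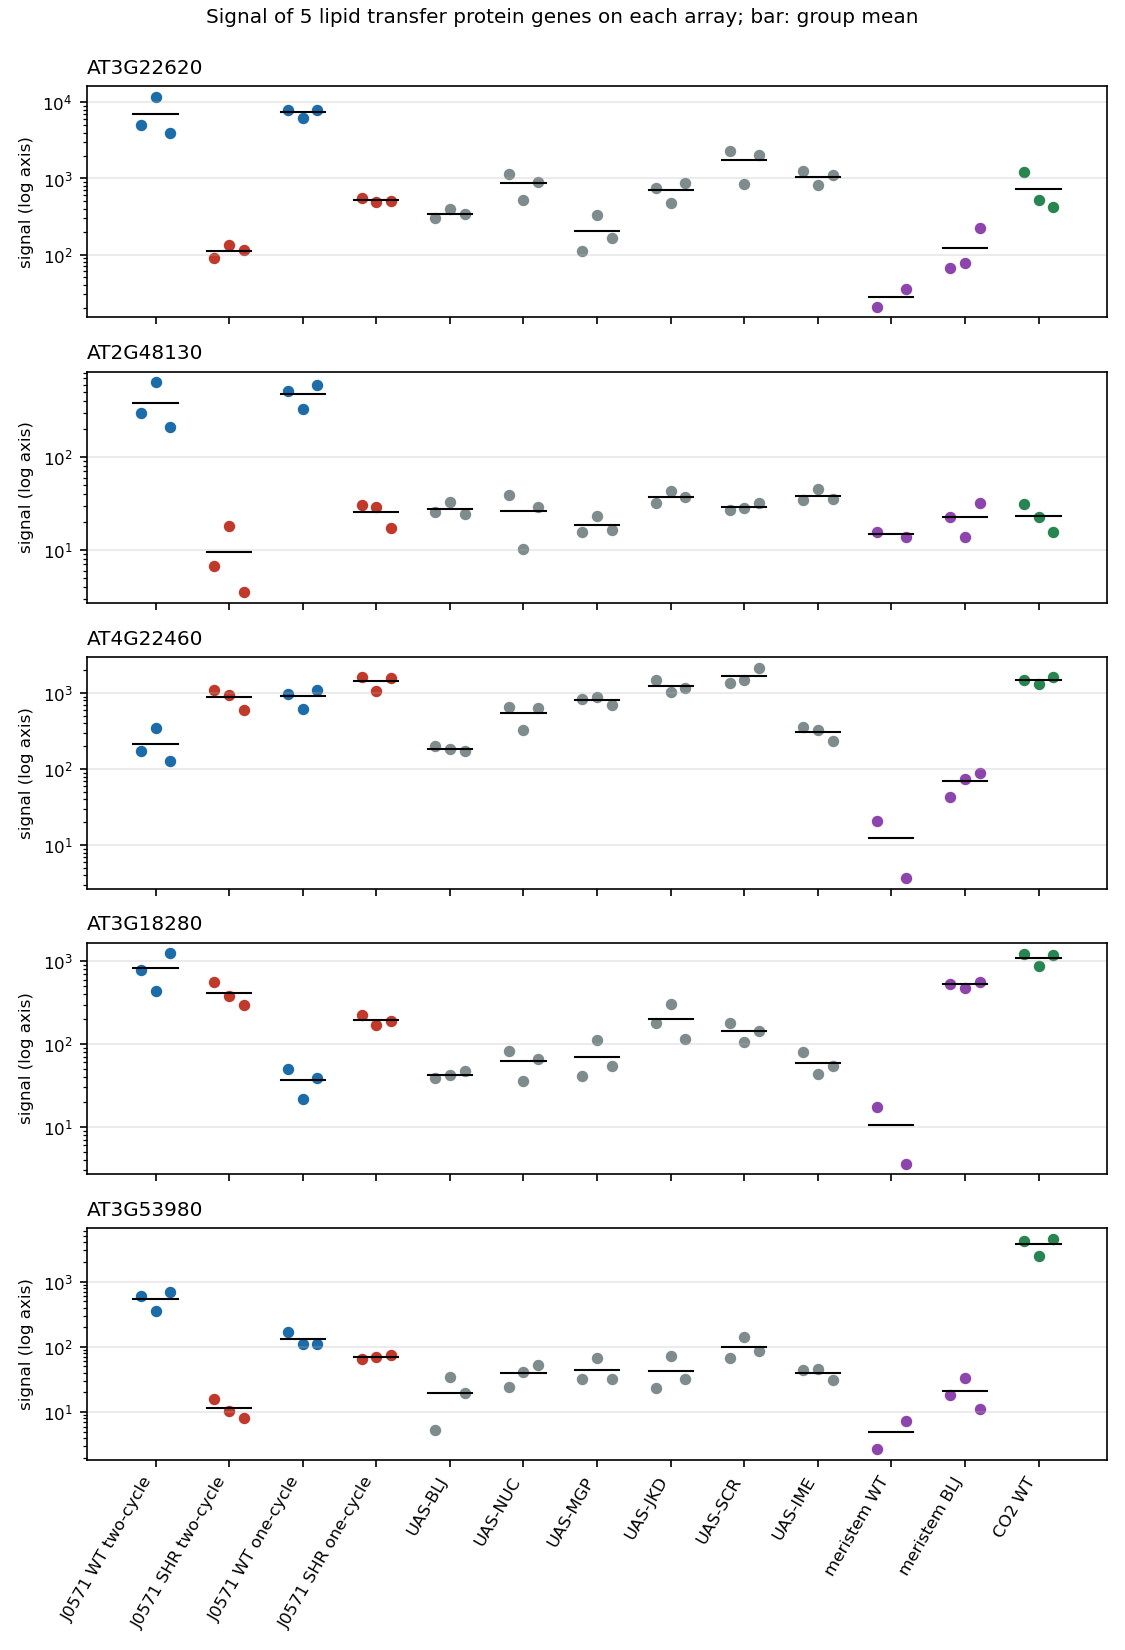
Signal of the 5 genes on every array (points, log axis) by group, with group means as bars; J0571 WT is blue, J0571 SHR red, the UAS lines grey, meristems purple and CO2 cells green. AT3G22620 and AT2G48130 are highest in the J0571 WT groups, AT4G22460 is low in UAS-BLJ, UAS-IME and the meristems, and AT3G53980 is highest in CO2 cells, where its 3 arrays lie between 2483 and 4508.

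AT2G48130, the other GPI-anchored gene, was high in J0571 WT cells and low on all other arrays. One-cycle WT arrays read 515, 326 and 597, and two-cycle WT arrays 293, 638 and 212. The one-cycle SHR arrays read 30.8, 29.2 and 17.4 and the two-cycle SHR arrays 6.7, 18.0 and 3.5. Every array outside the WT J0571 groups read at most 44.9, the highest value being that of UAS-IME replicate 2, and lay at or below the 41.5th percentile of its array. The one-cycle WT mean was 18.6-fold that of SHR, whose arrays lay between the 26.3th and 36.1th percentile. No fold is given for the two-cycle arrays, where SHR lay between the 8.8th and 21.6th percentile. CO2 cells stood at 31.5, 22.6 and 15.5. These contrasts chose the gene and carry no test.

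AT2G48130 was called against SHR in none of the 6 UAS lines. The changes ran from -0.28 in UAS-MGP (adjusted p = 0.533) to 0.38 in UAS-IME (adjusted p = 0.267), each with an SE of 0.24 on the log2 scale. These tests share the SHR arrays that took part in the choice of the gene. UAS-JKD, with 31.7, 42.8 and 36.8, and UAS-IME, with 34.1, 44.9 and 35.0, lay above all SHR arrays without passing the test. The floor of these lines was higher than that of SHR, as given above. Within arrays UAS-JKD lay between the 27.5th and 36.5th percentile and UAS-IME between the 34.1th and 39.7th. Both overlapped SHR (26.3th to 36.1th), and the change in UAS-JKD was -0.02 after quantile normalization. The scale of log2(signal + 16) understates differences between signals this low, so a small change of AT2G48130 could not be seen in these lines. In UAS-SCR, where AT3G22620 had reached 23.4% of WT, AT2G48130 read 26.9, 28.0 and 32.3, a change of 0.12 ± 0.24 (adjusted p = 0.685). The difference between the responses of these genes to UAS-SCR was not tested.

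Across the 13 group means of log2(signal + 16), the Pearson correlation of AT3G22620 with AT2G48130 was 0.83, and 0.90 over the 10 J0571 groups. Both values rest on the contrast of WT with the rest that chose the genes, and the groups share sorting marker and protocol. In the plot of one gene against the other, the 6 J0571 WT arrays form a group of their own, while among the remaining 32 arrays AT3G22620 spans 20.6 to 2303 and AT2G48130 spans 3.5 to 44.9.

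**Figure D2:**
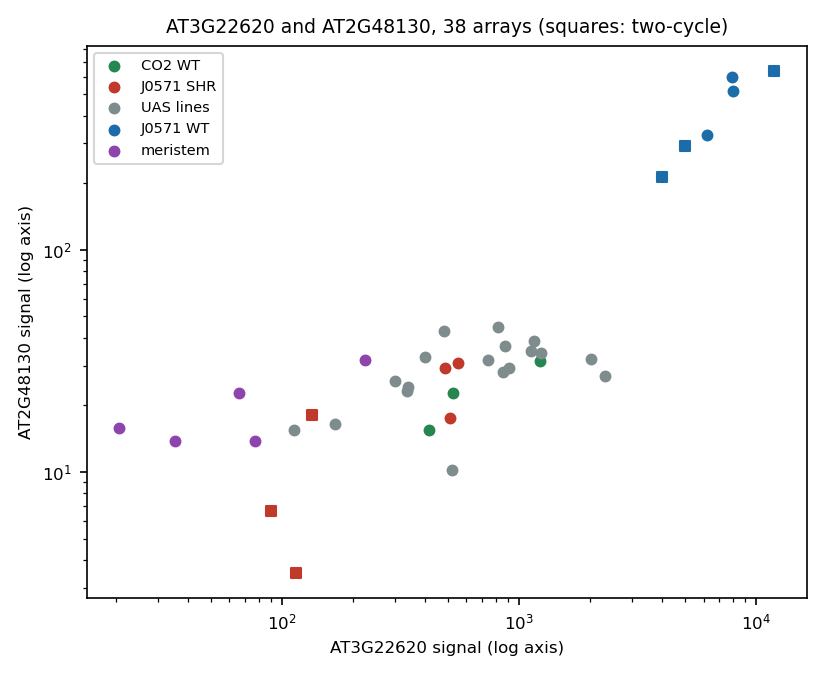
Signal of AT2G48130 against that of AT3G22620 on each of the 38 arrays (both axes log; squares are the two-cycle arrays). The J0571 WT arrays stand at 3997 to 11928 for AT3G22620 and at 212 to 638 for AT2G48130, apart from all others.

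AT4G22460, the hybrid proline-rich relative, was a bright gene of one-cycle SHR cells that was low in several UAS lines. The one-cycle SHR arrays read 1635, 1056 and 1583. The UAS-BLJ arrays read 202, 182 and 176, a mean 0.131-fold that of SHR, and the values of the arrays did not overlap. This difference, -2.81 ± 0.26 on the log2 scale, chose the gene and carries no test (11.1% of probe sets were called for UAS-BLJ against SHR, 6.47% higher and 4.67% lower).

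AT4G22460 was lower than in SHR in UAS-IME and UAS-NUC too. It read 357, 323 and 233 in UAS-IME, a change of -2.16 ± 0.26 (adjusted p = 6.81e-06), and 666, 330.4 and 633 in UAS-NUC, a change of -1.40 ± 0.26 (adjusted p = 4.22e-04, with 40.7% of probe sets called, 20.1% higher and 20.6% lower). No array of these lines reached the lowest SHR array. UAS-MGP (838, 885 and 689.7) lay below all SHR arrays as well but missed the threshold, at -0.79 ± 0.26 (adjusted p = 0.0602). UAS-JKD (1507, 1044 and 1183) and UAS-SCR (1364, 1484 and 2157) overlapped SHR, with changes of -0.18 (adjusted p = 0.579; 46.2% called, 23.4% higher and 22.8% lower) and 0.22 (adjusted p = 0.491). All of these comparisons share the SHR arrays that took part in the choice of the gene. UAS-IME, where AT4G22460 ranked 12 among the lowest changes, may itself have taken part in the choice. The sum of the cortex list moved differently from line to line: it ran from 3520 to 4052 in SHR, from 5759 to 6594 in UAS-BLJ, from 2263 to 3080 in UAS-IME and from 1534 to 1994 in UAS-NUC, and its part in the result was not tested.

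Between WT and SHR, AT4G22460 was lower in WT on the two-cycle arrays. There it read 175, 343 and 128 in WT and 1097, 939 and 602 in SHR, a change of -2.02 ± 0.38 (adjusted p = 0.00899) with no overlap. On the one-cycle arrays WT read 980.0, 617 and 1112 and overlapped SHR, with a change of -0.66 ± 0.26 (adjusted p = 0.0533). The difference between protocols was -1.36 ± 0.49 (adjusted p = 0.0476; 36.6% of probe sets called, 20.6% higher and 16% lower on the two-cycle arrays), a call that ended in 12 of the alternatives run, among them quantile normalization (adjusted p = 0.0612).

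CO2 cells held AT4G22460 at 1485, 1334 and 1646, close to the level of one-cycle SHR cells. The change against J0571 WT cells was 0.75 ± 0.23 (adjusted p = 0.0218, with 57.3% of probe sets called, 23.2% higher and 34.1% lower in CO2 cells), and it was not called without J0571 WT replicate 2_2 or CO2 replicate 3. In meristems the gene was low, with 21.0 and 3.7 in WT and 43.0, 73.6 and 90.1 in BLJ, and it did not pass the filter on low values for that comparison. CO2 cells exceeded WT meristems by 5.80 ± 0.29 (adjusted p = 1.59e-06). Of all probe sets 72.5% were called in this comparison, 31.2% higher and 41.4% lower in CO2 cells. The WT meristem arrays lay at or below the 30.1th percentile and the CO2 arrays between the 93.7th and 94.9th. The gene thus passed the filter on low values only through the CO2 arrays, where it is high. The call is no support for the difference. The order of its group means had 3 of 12 neighbouring pairs without overlap, those between UAS-MGP and UAS-NUC, between UAS-BLJ and BLJ meristems, and between BLJ and WT meristems.

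AT3G18280, of the type 2 list, had its highest mean in CO2 cells and differed between the protocols. The CO2 mean of 1100 was near that of two-cycle WT (828), whose arrays overlapped CO2 and reached 1251. CO2 cells read 1243, 878 and 1180, against 50.6, 21.5 and 39.4 in one-cycle J0571 WT cells, a 29.6-fold difference of the means that chose the gene and carries no test. One-cycle SHR cells, with 223, 171 and 188, lay above all one-cycle WT arrays. WT was lower than SHR by a change of -2.01 ± 0.32 (adjusted p = 7.00e-05). That comparison shares the one-cycle WT arrays, low in the contrast that chose the gene, so its test is not independent of the choice.

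On the two-cycle arrays the direction was not the same. AT3G18280 read 794, 439 and 1251 in WT and 563, 385 and 298 in SHR, which overlapped, with a change of 0.89 ± 0.41 (adjusted p = 0.131). The difference of the WT against SHR change between protocols was 2.91 ± 0.49 (adjusted p = 0.00134). This test holds the same one-cycle WT arrays and is not independent of the choice either. The WT mean was 828 on two-cycle and 37.1 on one-cycle arrays. Protocol and set of arrays cannot be told apart here.

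In 4 of the 6 UAS lines AT3G18280 was lower than in SHR. UAS-BLJ read 39.2, 41.9 and 47.6 (change -1.83 ± 0.32, adjusted p = 5.48e-04). UAS-IME read 79.9, 43.6 and 54.8 (-1.50, adjusted p = 0.00236), and UAS-NUC read 83.2, 36.1 and 67.0 (-1.47, adjusted p = 0.00168). All arrays of these lines lay below all SHR arrays, near the range of one-cycle WT. UAS-MGP read 41.0, 113 and 54.0 (-1.38, adjusted p = 0.0107, not called without its replicate 1, adjusted p = 0.0653). UAS-JKD, with 181, 305 and 114, and UAS-SCR, with 182, 106 and 145, overlapped SHR and did not pass the test (adjusted p = 0.911 and 0.3).

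AT3G18280 was called between the meristems, where AT3G22620 was the only other one of the 5 genes that passed the filter and was tested. It read 17.6 and 3.6 in WT meristems and 539, 475 and 567 in BLJ meristems, a change of 3.91 ± 0.43 after quantile normalization (adjusted p = 0.0146). The WT arrays lay between the 12.8th and 26.5th percentile and the BLJ arrays between the 86.1th and 89.7th. The gene thus passed the filter on low values only through the BLJ arrays, where it is high, and the call is no support for the difference. The call was lost without WT replicate 1, WT replicate 2 or BLJ replicate 2 (adjusted p up to 0.164), with changes of 3.30 to 4.24. The BLJ meristem arrays also had higher medians, a higher GAPDH ratio, a lower mean actin ratio and higher sums of the cortex list (609 to 1222 against 144 to 151) and of the epidermis list (171 to 242 against 30.3 to 31.6), and the part of these in the change was not tested. Only 1 pair of neighbours in the order of its group means, one-cycle J0571 WT and WT meristems, did not overlap.

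AT3G53980, also listed with the type 2 and DIR1-like proteins, had its highest values in CO2 cells. They read 4169, 2483 and 4508, with every array above those of all other groups. The mean of 3720 was 28.5-fold that of one-cycle J0571 WT cells (169, 110 and 112). WT meristems read 2.7 and 7.3, at or below the 17.7th percentile of their arrays, so that no fold is given against them. Both differences carry no test, since CO2 cells chose the gene. All 4 measured endodermis genes were lower in CO2 than in J0571 WT cells. Of the 5 cortex genes 2 were higher and 3 lower, AT1G62500 itself among the lower (79.1 ± 73.7 against 238 ± 66.6, SD, n = 3 each). Of all probe sets 57.3% were called in this comparison, 23.2% higher and 34.1% lower in CO2 cells. The call of AT1G62500 was lost without J0571 WT replicate 2_2, J0571 WT replicate 2_3 or CO2 replicate 3 (adjusted p up to 0.0813).

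In WT against SHR, AT3G53980 was called on the two-cycle arrays only, and the difference between protocols was itself called. Two-cycle WT arrays read 591, 348 and 693 and SHR arrays 15.9, 10.5 and 8.1, a change of 4.30 ± 0.30 (adjusted p = 3.76e-04). The SHR arrays lay between the 14.8th and 22.8th percentile and the WT arrays between the 79.7th and 89.5th. The gene thus passed the filter on low values only through WT, where it is high. It also ranked 14 among the highest changes here, so the call is no support for the difference. One-cycle SHR arrays read 65.8, 70.2 and 75.5, all below one-cycle WT, a change of 0.74 ± 0.33 (adjusted p = 0.0882). The difference between protocols was 3.57 ± 0.36 (adjusted p = 1.19e-04). This test holds the one-cycle WT arrays of the contrast with CO2 cells that chose the gene, and is not independent of the choice. In two-cycle SHR, where the gene was lowest of all J0571 groups, the GAPDH ratio stood apart from that of two-cycle WT, and its part in the difference was not tested.

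Among the UAS lines AT3G53980 passed the test in UAS-BLJ. It read 5.3, 34.9 and 19.7 there, a change of -1.35 ± 0.33 (adjusted p = 0.00837), which was not called without UAS-BLJ replicate 1 (adjusted p = 0.0751). The other lines had changes from -0.68 in UAS-NUC (adjusted p = 0.103) to 0.36 in UAS-SCR (adjusted p = 0.381). Of these, UAS-IME was called lower on its 6 arrays alone (adjusted p = 0.0188) and UAS-JKD without its replicate 2 (adjusted p = 0.0262). UAS-SCR, with 68.4, 142 and 85.2, overlapped both SHR and WT. BLJ meristems read 18.0, 33.4 and 11.1, and the gene did not pass the filter for the meristem comparison. CO2 cells and two-cycle WT, two-cycle and one-cycle WT, and two-cycle SHR and WT meristems were the 3 neighbouring pairs in its order without overlap.

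**Figure D3:**
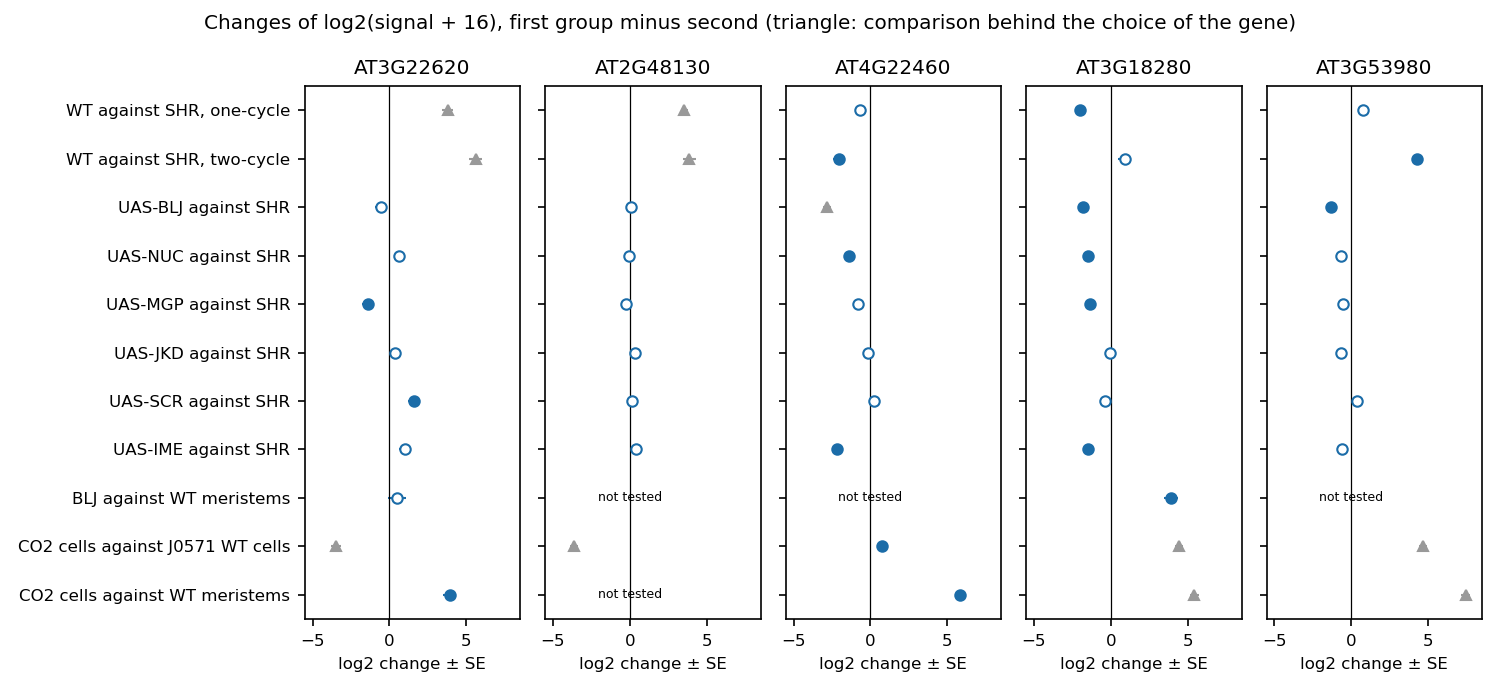
Changes of log2(signal + 16) with SE bars for the 5 genes in 11 comparisons; filled circles were called at an adjusted p under 0.05, open circles were not, and grey triangles mark comparisons behind the choice of the gene, which have no test. UAS-BLJ, UAS-NUC and UAS-IME lie to the left of 0 for AT4G22460 and AT3G18280, while AT2G48130 stays within 0.38 of 0 in every UAS line.

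Over the UAS lines AT3G18280 was the gene called most often, lower in 4 lines. Leaving out comparisons with no test, 2 of 4 genes were called in UAS-BLJ against SHR (AT3G18280 and AT3G53980, both lower, beside 11.1% of all probe sets). In UAS-NUC and UAS-IME the same 2 of 5 genes were called, AT4G22460 and AT3G18280, both lower (beside 40.7% and 21.1% of all probe sets). In UAS-MGP 2 of 5 were called, AT3G22620 and AT3G18280, both lower (beside 9.07%). UAS-SCR had 1 of 5, AT3G22620 (beside 47.7%), and UAS-JKD 0 of 5 by limma, also 0 at an unadjusted p under 0.05 (beside 46.2%). The shares of UAS-NUC, UAS-SCR and UAS-JKD are at or below those of all probe sets. AT3G22620 was the only one of the genes called higher in any line, in a test that shares the SHR arrays of its choice.

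The genes with the most similar profiles were named by the Pearson correlation of their 13 group means among 6033 probe sets of 1 gene. For AT3G22620 they were AT1G30750 (0.992), AT4G13580 (0.985) and AT5G66390 (0.981), the last annotated as a peroxidase. For AT2G48130 they were AT4G11290 (0.942), AT1G44970 (0.935) and AT5G47530 (0.932), and AT3G22620 itself ranked 29. For AT4G22460 they were AT5G48900 (0.950), AT5G18840 (0.934) and AT1G72500 (0.922). For AT3G18280 the third was AT2G44300 (0.906), a GPI-anchored gene of the family, after AT4G34600 (0.920) and AT3G21770 (0.914). For AT3G53980 the first was AT4G33550 (0.946), a gene of the type 2 and DIR1-like list, ahead of AT4G30450 (0.936) and XTH21 (0.920), a xyloglucan-modifying enzyme of the cell wall. These are descriptions of 13 means that share arrays and protocols.

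The wider family was read from a list of 115 genes, of which 51 had a named probe set. Besides the 5 genes these were 46, and 30 of the 46 passed the filter on low values in at least 1 comparison. The other 16 were tested nowhere, and 21 of the 46 had no group mean of 100 or more. A gene that passes only through the group where it is high has to differ, so the counts below describe the genes tested and not the family. None of the 4 other type 1 genes measured was tested in the J0571 comparisons, and the list of seed 2S albumins had no named probe set.

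In one-cycle cells 8 of 20 tested family genes were called between WT and SHR, a share of 40% beside the 34.5% of all probe sets. Of these 7 were lower in WT and 1 higher (beside 17.5% and 17% of all probe sets), with a median change of -0.36 over the 20 genes and -0.07 over all probe sets, while the actin ratio was lower in WT as given above. The hybrid proline-rich genes made up 6 of the 7, out of 9 tested. AT1G62510 stood at 27.1 ± 2.95 in WT and 1145 ± 246 in SHR (SD, n = 3; change -4.73, adjusted p = 3.12e-11), and AT1G62500 at 238 ± 66.6 and 1441 ± 170 (-2.54, adjusted p = 1.63e-04). These genes are also on the cortex list, of whose 5 tested genes 2 were called lower and 1 higher in WT, with a median change of -0.18. AT5G05960, of the type 2 and DIR1-like list, was lower too (40.2 ± 7.54 against 168 ± 17.7), and the GPI-anchored AT2G27130 was the 1 higher gene (309 ± 11.1 against 142 ± 30.6; change 1.06, adjusted p = 7.23e-04).

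On the two-cycle arrays 9 of 20 family genes were called, 6 higher in WT and 3 lower (45%, beside 28.8%). The count of 9 was 4 without WT replicate 1 or 3 and 3 without SHR replicate 1 or 2. The higher genes included 3 of 4 tested of the type 2 and DIR1-like list, with AT4G33550 at 290 ± 97.1 in WT and 43.8 ± 12 in SHR and AT1G48750 at 792 ± 241 and 175 ± 23.2. The 3 lower genes were all hybrid proline-rich: AT3G22570 (change -3.34), AT4G12490 (-2.83) and AT4G22470 (-1.84). The call of AT4G22470 (adjusted p = 0.0474) was lost in 7 of the alternatives, among them no filter on low signals and 5 of the fits without 1 array (adjusted p up to 0.137). The difference between protocols was called for 12 of 23 family genes (52.2%, beside 36.6%), 10 of them higher on the two-cycle arrays. It was 6.25 ± 0.39 for AT1G62510, which stood at 1145 in one-cycle SHR and at 13.3 ± 10 in two-cycle SHR.

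Against SHR, the UAS lines differed in how many family genes they changed. UAS-BLJ had 9 of 20 called (45%, beside 11.1%), 5 higher and 4 lower (beside 6.47% and 4.67% of all probe sets), and 8 of the 9 tested hybrid proline-rich genes were among them. AT4G12490 rose from 30 ± 8.28 in SHR to 439 ± 43.8 in UAS-BLJ (change 3.32, adjusted p = 1.96e-07), while AT1G62500 fell to 220 ± 11.1 and AT1G62510 to 178 ± 25.8. UAS-MGP had 3 of 20 called, all lower (15%, beside 9.07% in either direction and 3.76% lower). The count of UAS-MGP was 5 without its replicate 2. UAS-NUC had 8 (40%, beside 40.7%; 5 without UAS-NUC replicate 1), UAS-JKD 9 (45%, beside 46.2%) and UAS-SCR 6 (30%, beside 47.7%; 3 without UAS-SCR replicate 3), shares near or below those of all probe sets, and UAS-IME had 7 (35%, beside 21.1%).

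Some family genes moved the same way in several lines, all set against the same SHR arrays. AT5G05960 was lower than in SHR in all 6 UAS lines, with changes from -1.81 in UAS-IME to -0.67 in UAS-SCR, the last not called without UAS-SCR replicate 3 (adjusted p = 0.0781). AT3G22570 was higher in 5 lines, with changes from 1.15 in UAS-NUC to 1.59 in UAS-JKD, and not called in UAS-MGP (0.63, adjusted p = 0.16). AT1G62510 differed between lines: it was 36.7 ± 15 in UAS-IME (change -4.48) and 2203 ± 641 in UAS-SCR (change 0.91, adjusted p = 0.00936, not called without UAS-SCR replicate 3, adjusted p = 0.068). In UAS-JKD and UAS-SCR both measured epidermis genes were also higher, and their part in these changes was not tested. Of all probe sets 46.2% and 47.7% were called in these lines, 23.4% and 25.1% higher.

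Of the family genes near the members in the genome, 3 had a named probe set. AT3G22570, with 3 protein-coding genes between it and AT3G22620 in the TAIR10.1 gene order, was lower in two-cycle WT than in SHR (35 ± 8.02 against 520 ± 194), where AT3G22620 was higher, and was not called on the one-cycle arrays (means 73 and 98.6; adjusted p = 0.296). AT4G22470, with 2 genes between it and AT4G22460, had a lower mean in two-cycle WT than in SHR (79.9 and 377), as AT4G22460 had. For AT4G22470 the arrays overlapped there (WT up to 127.5, SHR from 124.7), and its call was lost in 7 of the alternatives. Both genes were lower than in SHR in UAS-NUC (AT4G22470 by a change of -0.72, adjusted p = 0.0292). AT4G22470 was higher than in SHR in UAS-BLJ (1.14, adjusted p = 0.00423) and UAS-IME (1.13, adjusted p = 0.00317). In these lines AT4G22460 read lowest among the UAS lines. AT4G22490, with 5 genes between it and AT4G22460, had group means of 15.5 to 95.1 and was called in neither of the 2 comparisons in which it was tested, those of two-cycle WT against SHR (change 0.65, adjusted p = 0.0839) and of the difference between protocols (1.05, adjusted p = 0.06). The differences between neighbours were not tested.

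In BLJ against WT meristems 4 of 19 tested family genes were called, all higher (21.1%, beside 2.56% in either direction and 2.18% higher). They included the GPI-anchored AT1G62790 (3286 ± 932 against 629 ± 21.3 as deposited; change 2.61 after quantile normalization, adjusted p = 0.0329), AT3G22570 (change 2.36, adjusted p = 0.0488) and AT4G22470 (change 2.36, adjusted p = 0.0459). The count of 4 ran from 0 to 7 when each array was left out in turn. It was 0 by limma without WT replicate 1, WT replicate 2 or BLJ replicate 2, where 5, 6 and 6 genes had an unadjusted p under 0.05, and 7 without BLJ replicate 1. Of the 46 family genes 27 had their highest mean as deposited in the BLJ meristems, whose arrays also had the highest medians.

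CO2 cells differed from J0571 WT cells in 10 of 14 tested family genes (71.4%, beside 57.3%), 7 higher and 3 lower, with the higher GAPDH and actin ratios of CO2 cells given above. All 4 tested genes of the type 2 and DIR1-like list besides AT3G18280 and AT3G53980 were higher in CO2 cells, among them AT1G48750 (1068 ± 153 against 49.2 ± 13.4) and AT4G33550 (1179 ± 362 against 57.2 ± 22.9). The GPI-anchored AT2G44300 was higher as well (1292 ± 237 against 55.3 ± 24.2; change 4.25, adjusted p = 1.61e-05), and AT2G27130 was lower (48.1 ± 10.8 against 309 ± 11.1). Against WT meristems 13 of 15 were called (86.7%, beside 72.5%), 10 higher and 3 lower. Of 20 listed genes of suberin synthesis, export and regulation 1 had a named probe set, FACT, a fatty alcohol caffeoyl transferase. FACT was higher than in SHR in UAS-NUC (94.2 ± 15.8 against 47 ± 4.35, adjusted p = 0.00435, beside 40.7% of all probe sets called). In UAS-IME it was higher too (82 ± 12.1, adjusted p = 0.0297, beside 21.1%), but not called after quantile normalization. WT and SHR did not differ by the test (adjusted p = 0.22 one-cycle, 0.743 two-cycle).

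**Figure D4:**
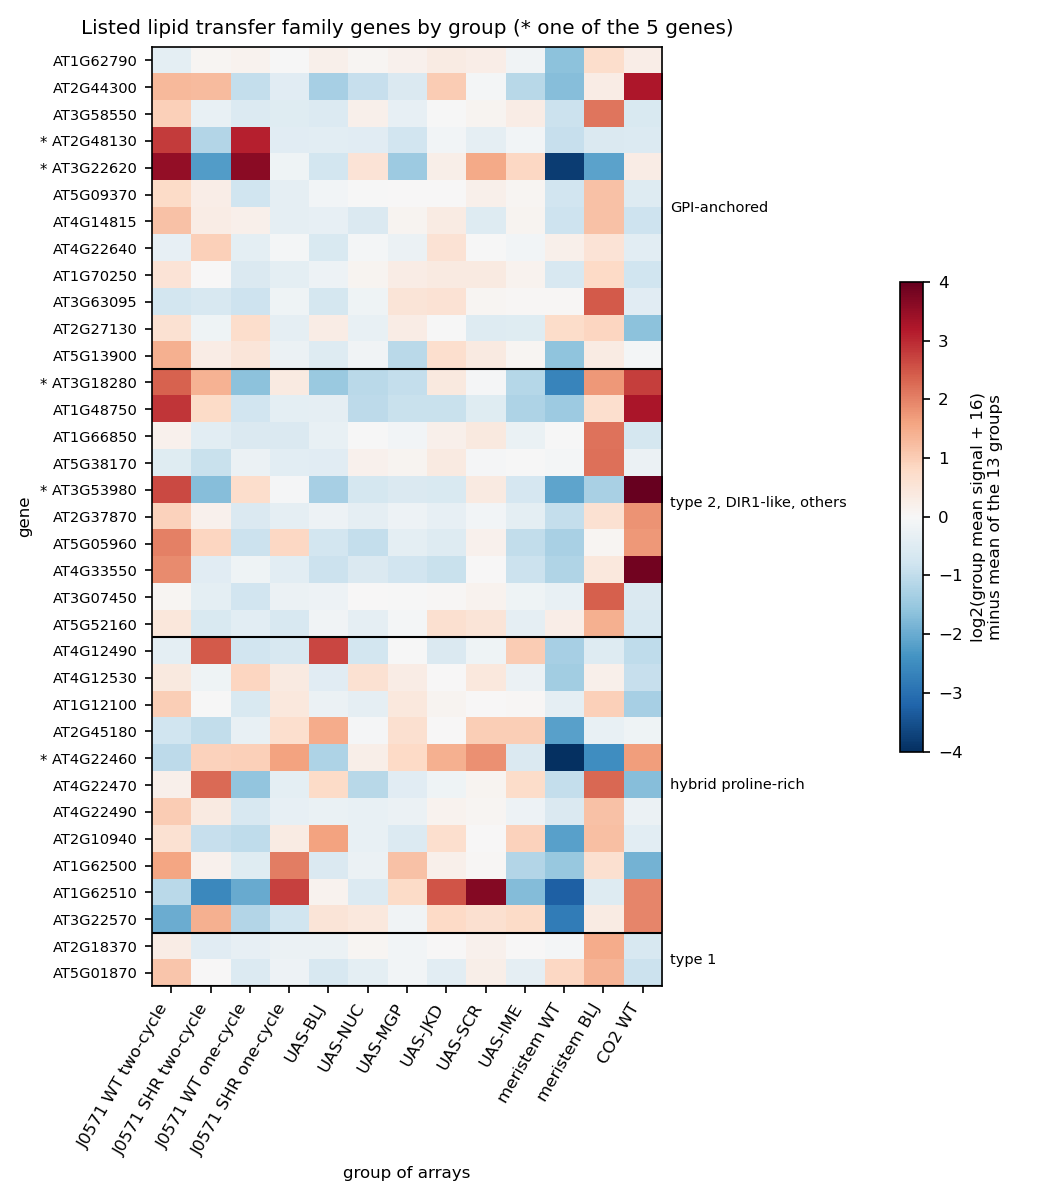
Mean log2(group mean signal + 16) of 35 family genes that were tested at least once, minus the mean over the 13 groups (red higher, blue lower), ordered by list; asterisks mark the 5 genes. AT3G22620 and AT2G48130 are red in both J0571 WT columns, AT3G18280 and AT3G53980 in CO2 cells with AT1G48750, AT4G33550 and AT2G44300, and much of the BLJ meristem column is red.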

How the data were processed

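RNA of 38 root samples in 13 groups was measured on ATH1 arrays. Each deposited value is the linear signal intensity of a probe set on a 1-colour array. The submitters' processing notes name MAS5 as the tool with which the authors made it, in a version not given in the sources used here. Titles gave the groups and the replicate numbers. The labels' descriptions give the labelling protocol of each array. The labels call the arrays biological replicates and say nothing of separate plants, so p-values measure the spread between these samples, and the number of arrays limits the precision.

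Of 22810 probe sets 64 controls were left out. The platform annotation names 1 gene for 13513 probe sets and several for 503 (none named here), and 8730 are unnamed here. Of those with 1 gene 13436 were matched to the TAIR10.1 gene table, used for names and gene order only.

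Changes were tested with limma 3.58.1 in R 4.3.3 (lmFit, eBayes with a trend) on log2(signal + 16), which understates changes of low signals, and p-values were adjusted by Benjamini and Hochberg's method over all tested probe sets, with 0.05 as the threshold of a call. A probe set was tested where its signal exceeded the 40th percentile of the fit's values on no fewer arrays than the smaller group holds. Quantile normalization was used where array medians spanned more than 0.5 on the log2 scale, in BLJ against WT meristems only (span 1.267). The 24 one-cycle J0571 arrays shared 1 fit. The median change of all probe sets was 0.15 and 0.05 (as deposited and quantile normalized) in two-cycle WT against SHR, 0.21 and 0.06 in the difference between protocols, 0.33 and -0.15 in meristems, and -0.23 and -0.07 in CO2 against J0571 cells. No arrays were identical (highest correlation 0.9878).

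The members and the gene lists were chosen with earlier results of these data known, and list membership comes from general knowledge of the family. Of other family genes, up to 3 called per comparison and direction with the largest change were named, and genes outside this rule were named after their values were seen. Same-numbered arrays were taken as paired where every pair's deviations correlated above 0.1, which held in UAS-IME against SHR (r 0.543, 0.347 and 0.182). In UAS-NUC against SHR and in CO2 against J0571 cells all 3 were positive but the lowest was 0.064 and 0.026. Counts of called family genes leave the 5 members out. The method was tested on simulated data. Alternatives were pseudocounts of 1 and 64, no filter, the other scaling, the compared arrays alone, a replicate block and leaving out each array.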

Additional observations from a re-analysis of the deposited data

Results flagged for a closer look

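The change between WT and SHR J0571 cells differed between the two-cycle and one-cycle arrays, by the interaction test over 12 arrays. This held for all 3 members tested and for 5 other named family genes. AT3G22620 and AT2G48130, chosen by WT against SHR, had no test. The two-cycle minus one-cycle difference was -1.36 for AT4G22460, 2.91 for AT3G18280 and 3.57 for AT3G53980. The call of AT4G22460 was lost in 12 of the alternatives. The tests of AT3G18280 and AT3G53980 hold one-cycle WT arrays that took part in their choice. Among the other family genes the difference was 6.25 for AT1G62510, 4.29 for AT1G62500, 2.78 for AT5G05960, -2.97 for AT3G22570 and -2.69 for AT4G12490. Of all tested probe sets 36.6% were called in this test, and the GAPDH 3′ over 5′ ratio differed between the two-cycle WT and SHR arrays; its part in these differences was not tested. No group holds 4 or more arrays, so single arrays were not examined for standing apart from their group.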

How the results depend on the processing

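The counts of called family genes, without the 5 members, stayed within 1.5 times the count reported in 59 of 66 fits with another pseudocount, filter, scaling, set of arrays or replicate block. The exceptions were UAS-NUC with no filter (13 in place of 8), UAS-MGP on its 6 arrays alone (5 in place of 3), UAS-JKD with a pseudocount of 1 (5 in place of 9), UAS-SCR with no filter (12 in place of 6), the meristems with a pseudocount of 1 or no filter (2 each in place of 4), and two-cycle WT against SHR with the replicate block (5 in place of 9). The suberin gene FACT was not called in UAS-IME after quantile normalization and was called in CO2 against J0571 cells with no filter. Leaving out each array gave 8 to 11 for one-cycle WT against SHR, 3 to 7 for two-cycle, 9 to 12 for the difference between protocols, 8 to 10 for UAS-BLJ, 5 to 8 for UAS-NUC, 2 to 5 for UAS-MGP, 6 to 7 for UAS-JKD, 3 to 5 for UAS-SCR, 7 for UAS-IME, 0 to 7 for the meristems, 8 to 10 for CO2 against J0571 cells and 11 to 13 for CO2 cells against meristems.

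Blocking on the replicate number left the count of UAS-IME at 7. In the other comparisons same-numbered arrays were not taken as paired. Blocked counts there stayed within 1.5 times except in two-cycle WT against SHR, given above. Directions turned only for small changes that were not called: AT2G48130 in the difference between protocols (-0.08 with a pseudocount of 64, -0.12 to 0.65 without 1 array), UAS-BLJ (-0.09 and -0.02, up to 0.16, without 1 array), UAS-NUC (0.05, 0.02 and 0.27), UAS-JKD (-0.02, quantile) and UAS-SCR (-0.26, quantile; -0.03 to 0.21 without 1 array), and AT3G18280 in UAS-JKD (0.04, quantile; 0.05 and 0.27, down to -0.38, without 1 array). Changes of the members that missed the threshold were called in 22 other fits: AT4G22460 in one-cycle WT against SHR in 6 (adjusted p from 0.0282) and in UAS-MGP in 3 (from 0.0344), AT3G22620 in UAS-IME in 5 (from 0.00196), in UAS-BLJ on its 6 arrays alone (0.00931) and in UAS-NUC without its replicate 2 (0.032), AT3G53980 in one-cycle WT against SHR in 3 (from 0.00939), in UAS-IME (0.0188) and in UAS-JKD (0.0262), and AT3G18280 in two-cycle WT against SHR without WT replicate 2 (0.0425). The cause was not tested. Signals near an array's lower percentiles, as of AT2G48130 outside WT, limit what the arrays can show.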
